A study of Mus musculus with 4 samples.

Results

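The cells named ILC1 by the authors were one of 21 cell types in a table of genes made from sorted mouse lymphocytes, and this account describes the 145 genes that the table lists for them. A gene listed for a type was a marker of that type according to the authors, and a gene listed for ILC1 is called a member here. The members were the rows with the cell type ILC1, 145 of 4422 rows, and the whole table held 1679 different genes, so 8.64% of its genes were members. The NK cell type, the closest by shared genes, had 197 genes, or 11.7% of those in the table. Wild-type mice of the BALB/c strain, 8 weeks old, supplied the liver and lung cells and had received an intraperitoneal injection of PBS or of 0.5 µg recombinant IL-33 (rIL-33) on each of 5 days. Every cell passed a flow cytometry gate for ILC2s that required CD127, Thy1 and the IL-33 receptor ST2 and excluded cells with CD3e, TCRb, Ly6G, Ly6c, CD11b, CD45R or TER119. The 4 groups, liver and lung after rIL-33 and liver and lung after PBS, had 1 library each, all were pooled in the table, and each library came from the pooled tissue of several mice. Neither treatment nor organ was therefore compared, and no value below has a replicate.

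ILC1s are tissue-resident innate lymphocytes without antigen receptors that release interferon gamma and other mediators. They share the regulator T-bet, activating receptors of the killer lectin-like family and the adapters of these receptors with natural killer (NK) cells, which circulate and kill target cells with perforin and granzymes. In the mouse liver both types live side by side and are usually told apart by the integrins CD49a, encoded by *Itga1* and typical of ILC1s, and CD49b, encoded by *Itga2* and typical of NK cells, and by *Eomes*, a T-box factor of NK cells.

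The values are shares: the percentage of cells whose value for a gene was above 0, inside a type and in all cells outside it. The shares of the 2 deposited tables were not on the same scale, and those of the cell type table cannot be read as rates of transcript detection. Of the 145 members, 88 also appeared in the second table, which compares subclusters of the ILC2s alone, and 81 of these had a larger share of all sorted cells in the cell type table than of all ILC2s in the second table. *Nkg7*, a cytotoxic granule gene, was above 0 in 78.8% of all sorted cells but in 13.4% of ILC2s in the second table, although ILC2s made up 43.2% of the sorted cells. *Tyrobp* stood at 63.7% and 3.53%, and *Ms4a4b*, a membrane protein of lymphocytes, at 87.5% and 11.7%. Even with every type of unknown share set to 100%, 48 of the 88 members would need a larger share of the ILC2 type than the second table gives for ILC2s. Values of this kind can come from batch-integrated data, but this origin was not tested. The paper's methods describe a merged matrix with log-transformed counts and name no integration step. The authors' sources do not state which values were used for the shares. The differences below are therefore differences in these shares, given in percentage points, and not in transcripts per cell.

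**Figure D1:**
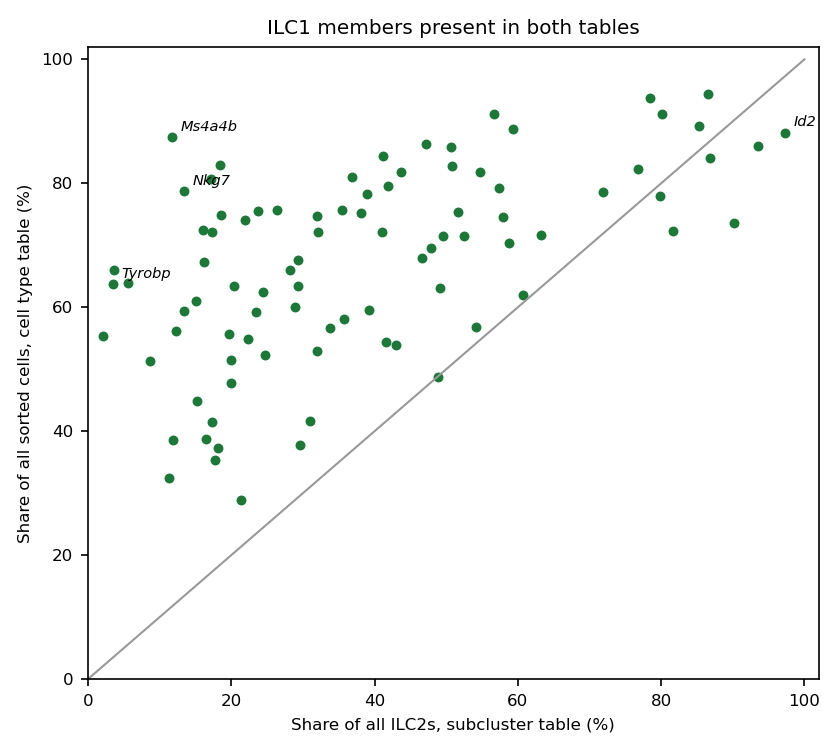
Each point is 1 of the 88 ILC1 members present in both tables, with the share of all ILC2s in the subcluster table on the x axis and the share of all sorted cells in the cell type table on the y axis, both in percent. The line marks equal shares, and 81 of the 88 points lie above it, among them *Tyrobp* at 3.53% and 63.7%.

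The ILC1s made up 4.84% ± 0.0182 (standard error of the fit) of the cells in the table. This size was solved from the shares, because for each gene the share outside a type and the share inside it must combine to the same share of all cells whichever type lists the gene. NK cells made up 3.66% ± 0.0156 by the same fit, so the table held 1.32 ILC1s for each NK cell, and both types together made up 8.50% of the cells. The errors cover the fit and rounding only. The table gives no number of cells, and the cell total that the study states was not used here, so no counting interval was computed for a share. Shares are rounded by up to 0.05 percentage points.

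The ILC1s were led by receptors and adapters of natural killer type and by the chemokine gene *Xcl1*. The largest difference between ILC1s and all other cells was that of *Fcer1g*, at 97.0% of ILC1s against 62.3% of other cells, a difference of 34.7 points. *Fcer1g* (GRCm38 chromosome 1, 171229572 to 171234365, minus strand, protein-coding) encodes the FcR gamma chain, a signalling adapter. *Xcl1* (chromosome 1, 164931644 to 164935527, minus strand) encodes lymphotactin, the chemokine that attracts XCR1-bearing dendritic cells, and was above 0 in 93.7% of ILC1s against 60.5% of other cells, a difference of 33.2 points. *Ncr1* (chromosome 7, 4337724 to 4345164, plus strand), which encodes the activating receptor NKp46, was at 95.1% against 62.3%. *Tyrobp* (chromosome 7, 30413760 to 30417585, plus strand), which encodes the adapter DAP12, was at 92.7% against 62.2%. *Qrfp*, a neuropeptide precursor gene, was at 73.0% against 39.9%, and *Anxa2*, a membrane-binding annexin, was at 92.1% against 61.6%. These were the 6 members with a difference of at least 30 points.

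The next members by difference, down to rank 20, were mostly surface receptors and granule genes. *Itga2* differed by 28.3 points, *Klrk1*, which encodes the activating receptor NKG2D, by 27.5 points, *Cd160*, a receptor for MHC class I and HVEM, by 27.1 points, and *Klrb1f*, a member of the NK1.1 family, by 25.1 points. *Olfm1* differed by 25.1 points, *Tnfrsf13c*, the gene of the BAFF receptor known from B cells, by 24.9 points, and *Itgb1*, the integrin beta 1 chain, by 24.5 points. *Ctla2b*, a cathepsin inhibitor-like gene, differed by 24.3 points, the keratin gene *Krt83* by 24.0 points and the kinase gene *Pim3* by 23.7 points. The last were *Ctsw* at 22.8 points, *Klrd1*, the CD94 partner of the NKG2 receptors, at 22.7 points, *Gimap7*, a lymphocyte GTPase gene, at 22.1 points and *Nkg7* at 21.9 points. *Nkg7* had the highest share of any member, 99.6% of ILC1s against 77.7% of other cells.

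**Figure D2:**
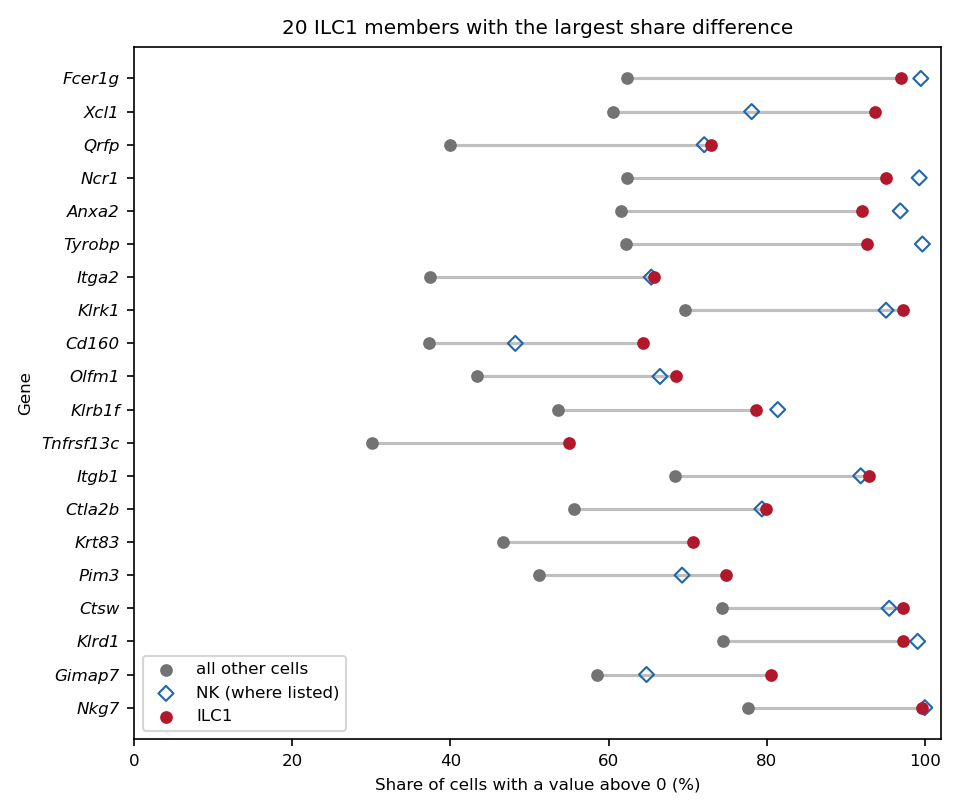
The 20 members with the largest share difference are in rows, and the x axis gives the percentage of cells with a value above 0 for ILC1s (red), all other cells (grey) and, where the gene was also listed for them, NK cells (open diamonds). The red points range from 55.0% for *Tnfrsf13c* to 99.6% for *Nkg7*, and the NK point lies well to the left of the ILC1 point for *Xcl1*, *Cd160* and *Gimap7*.

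Over all members the share of ILC1s ranged from 28.8% to 99.6% with a median of 77.0%, and the share of other cells from 28.7% to 94.2% with a median of 62.3%. The median difference was 10.9 points, against 18.4 points over all rows of the table and 10.5 points over the NK rows. A difference of at least 10 points was reached by 81 members and at least 20 points by 30 members. In 11 members (7.59%) the share of ILC1s was below that of other cells although the authors listed them as markers, against 16.3% of all rows. The lowest was *Gzmc*, a granzyme of strongly activated lymphocytes, at 28.8% of ILC1s against 49.7% of other cells. It was followed by *Cxxc5* at 45.6% against 55.8%, *Gcnt2* at 48.7% against 57.4%, *Gabarapl1* at 42.6% against 49.2% and *Ipcef1* at 62.9% against 67.5%.

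Of 31 genes that ILC1s and NK cells are known to have in common, 23 were in the table and 21 of these were listed for ILC1, or 91.3% against the 8.64% of all genes of the table that were members. All 23 were listed for NK. This list and those below were chosen with earlier results of these data known, so their shares are descriptions and not tests. The exceptions for ILC1 were *Ccl3*, a chemokine gene, and *Klrb1b*, an inhibitory receptor gene. Among these genes the chemokine gene *Ccl5* stood at 99.1% of ILC1s against 81.0% of other cells, *Ccl4* at 70.5% against 60.4%, the IL-18 receptor gene *Il18r1* at 88.8% against 73.4% and *Klrb1c*, the gene of NK1.1, at 68.8% against 49.9%. *Ms4a4b* was at 99.4% against 86.9%, the GTPase gene *Gimap4* at 97.4% against 80.2%, the kinase gene *Txk* at 97.0% against 82.3% and *Cd244a*, the gene of the receptor 2B4, at 59.3% against 47.1%. *Klrc1* and *Klrc2*, the genes of the NKG2A and NKG2C receptors, were at 77.0% and 81.6% of ILC1s against 61.6% and 65.8% of other cells. *Klrb1a* was at 63.1% against 53.8% and *Klri2* at 52.0% against 48.1%, while *Klre1* was at 54.5% against 54.9%.

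A list of genes known from ILC1s, some of which NK cells also use, gave a mixed picture. Of 25 such genes 18 were in the table and 10 of these were members, a share of 55.6% against 8.64% of all genes of the table. NK listed 7 of them (38.9%), against 11.7% of all genes, and 6 of the 10 members were listed for NK too. When a difference of at least 10 points from all other cells was asked for, 4 of the 10 were left. Of these members *Cd160* and *Xcl1* are described above, and *Il2rb*, the gene of the beta chain of the IL-2 and IL-15 receptors, stood at 98.1% of ILC1s against 77.2% of other cells. *Cd7*, a surface glycoprotein gene, was at 90% against 70.3%, *Cxcr3*, a chemokine receptor gene, at 75.4% against 65.6% and *Rgs1*, a regulator of chemokine receptor signalling in resident lymphocytes, at 92.7% against 83.7%. *Gzmc*, also on this list, went the other way, at 28.8% against 49.7%. Differences were small for 3 further members. *Ifng*, the interferon gamma gene, stood at 64.4% against 58.1%, *Itga1* (chromosome 13, 114953096 to 115101964, minus strand) at 56.6% against 53.7% and *Tbx21*, the T-bet gene (chromosome 11, 97098071 to 97115331, minus strand), at 53.7% against 51.7%. *Cxcr6*, *Csf2*, *Il21r*, *Itgae*, *Tcrg-C4*, *Thy1* and *Tnf* were listed for other types and not for ILC1 or NK, and *Ctla2a* was listed for NK. The absence of a listing does not say whether a gene was lower, equal or too rare, and *Il7r*, *Tnfsf10*, *Cd200r1*, *Inpp4b*, *Ltb*, *Zfp683* and *Il12rb2* were on no list of the table. The proteins CD127, encoded by *Il7r*, and Thy1 had been used to sort the cells.

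Genes typical of NK cells were listed far more often for NK than for ILC1. Of 25 such genes 20 were in the table. NK listed 16 of these (80.0%), against 11.7% of all genes of the table, and ILC1 listed 4 (20%), against 8.64%. These 4 members were *Itga2*, the perforin gene *Prf1*, the transcription factor gene *Irf8* and *Ly6c2*, and of them only *Ly6c2* was not listed for NK. *Ly6c2* was at 81.7% of ILC1s against 69.6% of other cells, and Ly6c protein was among the antigens used to exclude cells in the sort. The 13 genes listed for NK and not for ILC1 included *Eomes*, the granzyme genes *Gzma* and *Gzmb*, the inhibitory receptor genes *Klra3*, *Klra7* and *Klrg1*, the chymase gene *Cma1*, and the regulators *Zeb2* and *Klf2*. *Itgam*, *Serpinb9b* and *Ccr2* were also among them, and CD11b, the protein encoded by *Itgam*, was likewise used to exclude cells in the sort. By the integrins alone the label was not clear, because *Itga2* was at 65.7% of ILC1s and 65.4% of NK cells while *Itga1* was listed for ILC1 and not for NK but with a difference of 2.90 points from all other cells.

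**Figure D3:**
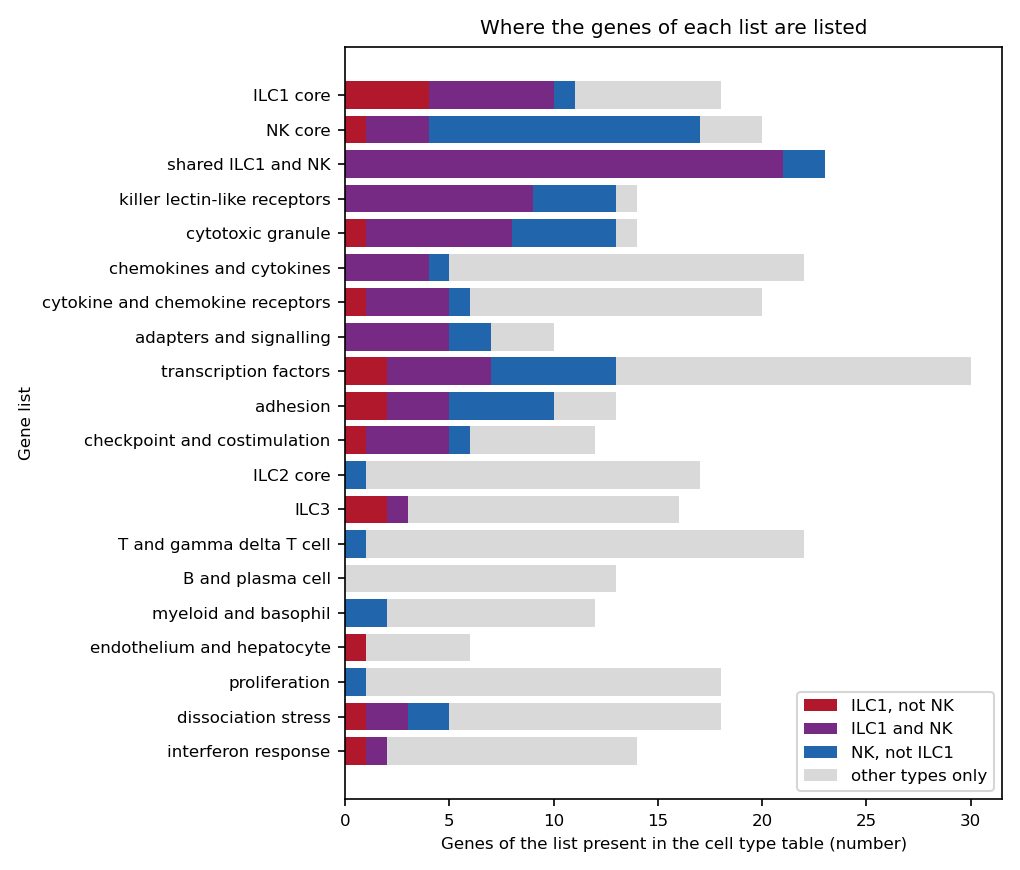
Each bar is a gene list, and its length is the number of the list's genes present in the cell type table, divided into genes listed for ILC1 and not NK (red), both (purple), NK and not ILC1 (blue) and other types only (grey). The shared genes are purple in 21 of 23 cases, and 13 of 20 genes typical of NK cells are blue.

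To ask how close both types were, the members were compared with the NK rows. They had 108 genes in common, 74.5% of the ILC1 list and 54.8% of the NK list, which left 37 members not listed for NK and 89 NK genes not listed for ILC1. The share was higher in ILC1s for 47 of the common genes, higher in NK cells for 60 and equal for *Dusp2*. The median difference between ILC1s and NK cells was -0.55 points, and for 73 genes it was smaller than 5 points in size. *Txk* differed by 0.1 points, which is within the rounding of both shares, and cells of 1 library per group give no spread against which a difference could be tested.

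A share at least 10 points higher in ILC1s than in NK cells was found for 8 genes. *Hopx* (chromosome 5, 77086988 to 77115121, minus strand), a homeodomain-only protein gene of resident and effector lymphocytes, was above 0 in 80.4% of ILC1s and 59.0% of NK cells, a difference of 21.4 points. *Cd160* (chromosome 3, 96798763 to 96829351, minus strand) was at 64.4% and 48.2%, *Gimap7* at 80.6% and 64.8%, and *Xcl1* at 93.7% and 78.1%. *Ier5l* followed at 70.5% and 57.5%, the transcriptional coactivator gene *Cited4* at 48.5% and 36.7%, *Lyst*, a lysosomal trafficking regulator gene, at 81.5% and 70.7%, and *Cemip2*, a hyaluronan-degrading membrane protein gene, at 72.2% and 62.0%. In the cells outside both types *Hopx* was at 60.2% and *Xcl1* at 59.8%, so that NK cells were near the outside level for *Hopx* and above it for *Xcl1*.

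A difference of at least 10 points in the other direction was found for 11 genes. *Klre1* (chromosome 6, 129577905 to 129585827, plus strand), a receptor that pairs with other killer lectin-like receptors, was above 0 in 54.5% of ILC1s and 86.6% of NK cells, a difference of -32.1 points, and in 53.6% of the cells outside both types. *Irf8* was at 68.4% and 91.5%, and *Prf1* at 71.9% and 91.5%. *Tm6sf1* was at 61.9% and 78.1%, the adapter gene *Lat2* at 46.0% and 62.1%, the GTPase gene *Gem* at 69.3% and 83.3%, and *Plek*, a substrate of protein kinase C, at 75.8% and 87.5%. The share of ILC1s was above that of the cells outside both types for *Prf1* (59.3%) and *Irf8* (50.7%), so that ILC1s lay between the outside cells and NK cells for both genes. *Fcer1g* and *Ncr1* were at 97.0% and 95.1% of ILC1s and at 99.5% and 99.3% of NK cells, and *Tyrobp* was at 92.7% and 99.7%.

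**Figure D4:**
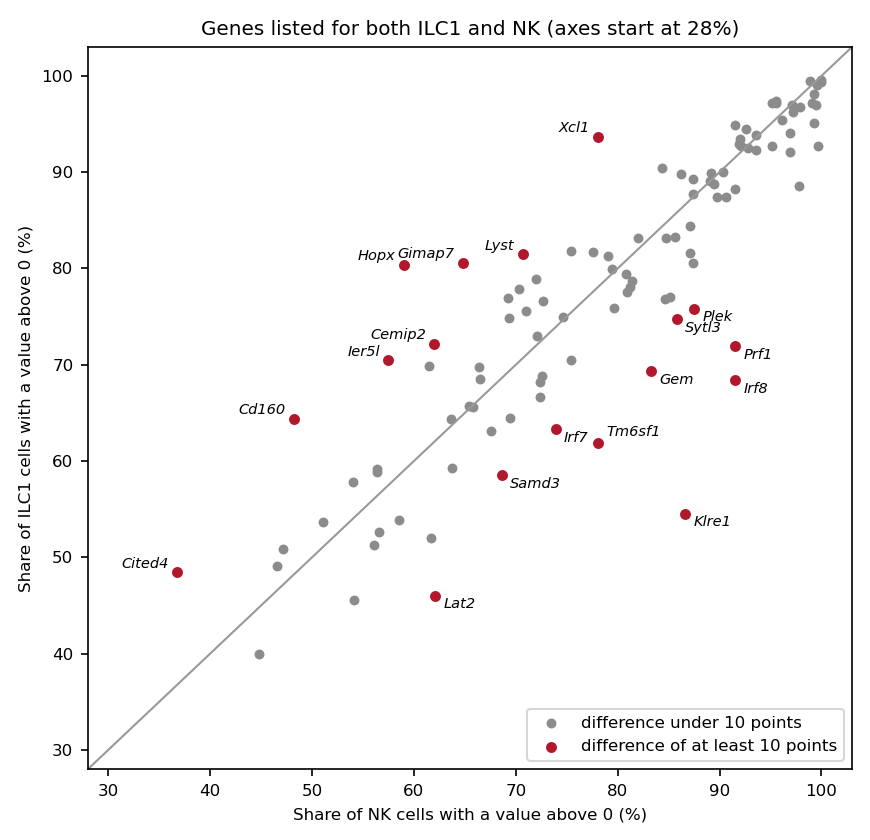
Each point is a gene listed for both types, with 1 of the 108 genes left out, with the percentage of NK cells above 0 on the x axis and of ILC1s on the y axis; both axes start at 28%. Red points differ by at least 10 points, 8 of them above the line of equality, led by *Hopx*, and the others below it, led by *Klre1*.

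Of the NK rows without an ILC1 listing, the 5 with the largest difference are given here. *Gzma* (chromosome 13, 113093825 to 113100981, minus strand) was at 89.6% of NK cells against 39.0% of all cells outside NK, a difference of 50.6 points and the largest of the NK list. *Plxnc1*, a semaphorin receptor gene, was at 61.4% against 34.8%, *Gzmb* at 78.1% against 52.7%, *Eomes* (chromosome 9, 118478212 to 118486132, plus strand) at 86.7% against 64.0% and *Ccl3* at 65.0% against 45.0%. The share of ILC1s for these genes cannot be read from the table.

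Of the cytotoxic granule genes, 8 of 14 in the table were members and 12 were listed for NK, against 8.64% and 11.7% of all genes of the table. Beside *Nkg7*, *Ctsw*, *Prf1* and *Gzmc* these were *Serpinb6b* and *Serpinb9*, inhibitors of granule proteases, at 88.2% and 87.4% of ILC1s against 67.3% and 67.5% of other cells, *Fasl*, the gene of the death ligand for Fas, at 84.4% against 67.4%, and *Ctsd* at 92.7% against 81.9%. *Gzmc* was the only granzyme gene among the members. Of the killer lectin-like receptor genes 9 of 14 were members, and all 9 were also listed for NK. They lie in a stretch of 1131258 bases on chromosome 6 (128609227 to 129740484), together with 1 further member, *Gabarapl1*, among 14 genes of the table in this stretch. Chromosome 6 held 22 of the 145 members (15.2%) and 6.32% of the genes of the table with a position.

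The counts of the following lists stand against the same 8.64% of all genes of the table. Among secreted mediators, 4 of 22 genes in the table were members: *Xcl1*, *Ccl4*, *Ccl5* and *Ifng*, and no type 2 or type 17 cytokine gene was among them. Of the cytokine and chemokine receptor genes 5 of 20 were members. They included *Il2rb*, *Il18r1* and *Cxcr3*, described above, and *Cxcr4*, at 92.7% of ILC1s against 86.1% of other cells. Of the adapter and kinase genes, 5 of 10 were members, with *Lck* at 87.4% against 80.4% and *Lat2* at 46.0% against 37.4%, and *Cd3d*, *Cd3e* and *Cd3g* were not. Of 30 transcription factor genes 7 were members. *Nfil3*, a factor needed early in the development of innate lymphocytes, was at 75.6% against 54.7%, *Litaf* at 77.9% against 60.1%, *Bhlhe40* at 87.7% against 77.4%, *Id2*, the inhibitor of E proteins common to innate lymphocytes, at 97.5% against 87.7% and *Ahr*, the aryl hydrocarbon receptor gene, at 55.4% against 56.7%. Of 12 checkpoint and costimulatory genes 5 were members, among them *Cd27* at 81.3% against 74.4% and *Tnfrsf9*, the gene of 4-1BB, at 58.9% against 52.7%. *Tnfrsf9* (chromosome 4, 150914562 to 150946102, plus strand) was the only member listed for no other type. Of 13 adhesion genes 5 were members, and *Lgals3*, a galectin gene, was at 87.5% against 71.5%.

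Lists for most other cells of the sort held no member. No member was found among 17 ILC2 genes of the table, including *Gata3* and *Il1rl1*, the gene of ST2, on which the cells were sorted. The same held for 22 T cell genes, 13 B lineage genes, 12 myeloid and basophil genes and 18 proliferation genes. Against the 8.64% of all genes of the table that were members, the remaining lists had larger shares that rested on 1 to 3 genes each. Of 16 ILC3 genes 3 were members (18.8%), *Ncr1*, *Tmem176a* at 81.6% against 70.9% and *Tmem176b* at 88.3% against 73.8%. Of 18 dissociation stress genes 3 were members (16.7%), *Btg2* and *Ier2* with differences of 5.30 and 3.20 points and *Hspa1b* with 3.20 points. Of 14 interferon response genes 2 were members (14.3%), *Irf7* at 63.3% against 55.8% and *Gbp4* at 65.0% against 66.0%. Of 6 genes of endothelium and hepatocytes 1 was a member (16.7%). This was *Trf*, the transferrin gene, at 44.3% against 32.4%, which was also listed for Basophil, Endothelium cell, ILC1_ILC3 and Macrophage.

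Members were widely shared with other types. A member was listed for a median of 4 other types and at most 9, and 5 members, *Ctla2b*, *Metrnl*, *Klrb1a*, *Sulf2* and *Itm2a*, were listed for NK and no further type. After NK, most members were shared with gdT_TypeI (76 genes, 52.4% of either list) and ILC1_ILC3 (68 genes, 46.9% of the ILC1 list and 30.2% of the other). Basophil, which listed 275 of the 1679 genes of the table, followed with 43 genes (29.7% and 15.6%). CD8_Effector, which listed 94, had 40 (27.6% and 42.6%). ILC2 shared 8 of its 136 genes (5.88%) and gdT_TypeII none of its 28. Members were 8.64% of all genes of the table, so neither of these low counts is read as a result. The order of the types depended on how large a difference was asked for. When the share had to exceed that of all other cells by at least 10 points in both listings, NK shared 60 members, ILC1_ILC3 37, gdT_TypeI and Basophil 25 each and CD8_Effector 5. The members listed for NK, gdT_TypeI and ILC1_ILC3 alike numbered 26, among them *Xcl1*, *Klrk1*, *Il2rb*, *Cd160*, *Cd7*, *Ctsw*, *Txk* and *Nfil3*. The 8 members listed for none of these 3 types were *Ddx39*, *Hspa1b*, *Isyna1*, *Lilr4b*, *Lilrb4a*, *Rgs1*, *Tnfrsf13c* and *Tnfrsf9*. *Lilr4b* and *Lilrb4a*, genes of leukocyte immunoglobulin-like receptors, were at 47.6% and 46.4% of ILC1s, and Basophil was the only other type listing them, at 100% and 98.5%.

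**Figure D5:**
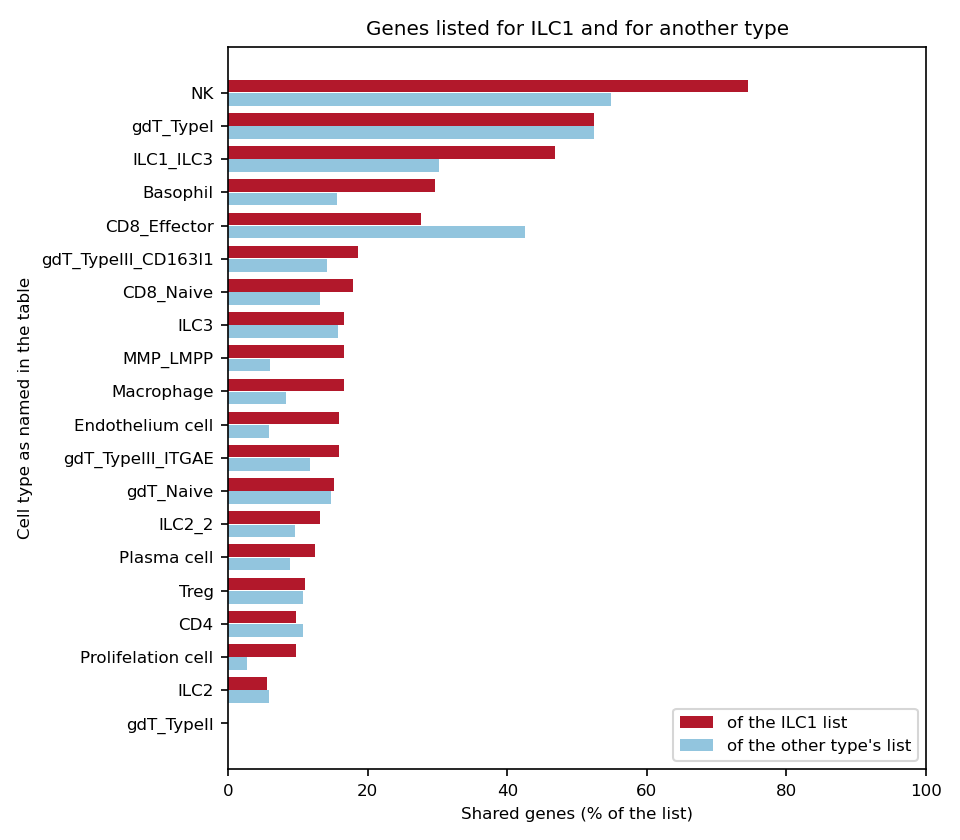
For each of the other 20 types, the red bar gives the genes shared with ILC1 as a percentage of the ILC1 list and the light blue bar the same genes as a percentage of that type's own list. NK is at 74.5% and 54.8%, gdT_TypeI at 52.4% of either list, and gdT_TypeII at 0.

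The listings of ILC1 and of each of these 3 types differed in several gene lists. ILC1_ILC3 listed 225 genes, or 13.4% of those in the table, gdT_TypeI listed 145 (8.64%) and NK 197 (11.7%), against 8.64% for ILC1, and the counts are to be read against these shares. The list of genes known from ILC1s did not differ in number for 2 of them, since gdT_TypeI and ILC1_ILC3 also listed 10 of its 18 genes. For gdT_TypeI the T cell list had 13 of 22 genes against 0 for ILC1, and the genes common to ILC1s and NK cells had 12 of 23 against 21. ILC1_ILC3 also had 12 of these 23. It had 10 of 16 ILC3 genes against 3 for ILC1, 15 of 30 transcription factor genes against 7, 9 of 18 dissociation stress genes against 3 and 3 of 14 cytotoxic granule genes against 8. NK had 16 of 20 NK genes against 4 for ILC1. The genes shared with gdT_TypeI were more frequent in ILC1s in 65 of 76 cases, with a median difference of 5.20 points, led by *Xcl1* at 93.7% against 69.2% and *Klrk1* at 97.2% against 73.8%. Those shared with ILC1_ILC3 were less frequent in ILC1s in 53 of 68 cases, with a median of -6.60 points. *Cited4* was at 48.5% of ILC1s and 91.3% of ILC1_ILC3, but *Xcl1* was at 93.7% and 63.9%, *Tyrobp* at 92.7% and 68.3% and *Ncr1* at 95.1% and 79.2%. *Xcl1* was thus highest in ILC1s of the 4 types that listed it, and 58.4% of the cells of all remaining types were above 0 for it. In all, 19 members had their highest share in ILC1s among the types listing them, including *Klrk1*, *Ctsw*, *Qrfp*, *Ctla2b*, *Ifng* and *Tbx21*. For these named genes the margin over NK was small, from 0.5 points for *Ctla2b* to 2.6 points for *Tbx21*, and without a replicate. Of these 19, *Dusp2* was tied with NK at 89.1%, and *Gpr174* and *Ipcef1* were less frequent in ILC1s than in all other cells, at 54.0% against 56.6% and 62.9% against 67.5%.

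Members varied between subclusters of the ILC2s, in the second table and on its own scale. Both tables held 820 genes in common, and 88 of them were members (10.7%). Of the common genes listed for subclusters 8 and 1, 31 of 113 and 30 of 115 were members (27.4% and 26.1%). The counts were 30 of 122 (24.6%) for subcluster 5 and 23 of 451 (5.10%) for subcluster 4, which listed the most of the common genes. In subcluster 5 the share was above that of the other ILC2s for 10 of these 30 members. It was above for 19 of 20 in subcluster 3, for 27 of 28 in subcluster 7 and for every member in each other subcluster. The same proportion over all listed genes is not given here. In subcluster 1 *Itga2* was above 0 in 34.4% of cells against 12% in the rest of the ILC2s, and *Qrfp* in 36.2% against 12.6%. Subcluster 4 had *Cd160* at 33.7% against 9.60% and *Nkg7* at 30.5% against 11.7%. Subcluster 7 had *Fcer1g* at 32.0% against 5.20%, and subcluster 5 had *Ms4a4b* at 49.6% against 10.2% and *Cxcr3* at 25.7% against 2.70%. *Xcl1*, *Ncr1*, *Klrk1* and *Klrd1* were listed for no subcluster.

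The start regions of the members were searched for short motifs of factor families known from these cells. RefSeq promoter windows of GRCm38.p6, 300 bases long around a start site, were found for 110 of the 145 members, and a gene was counted when any of its windows held the motif on either strand. None of the 3 motifs contains another. The Runx letters TGTGGTT were in 14 members (12.7%), against 5.32% of the genes of the cell type table with a window, 6.09% of all genes with a window and 6.85% of the NK genes not listed for ILC1. The T-box letters GGTGTGA were in 7 members (6.36%), against 4.86%, 4.60% and 12.3% of the same sets. The Ets letters GGAAGT were in 32 members (29.1%), against 29.6%, 26.5% and 26%. These are matches of letters and not sites. The windows of *Xcl1* and *Ncr1*, a chemokine gene higher in ILC1s than in NK cells and a receptor gene frequent in both types, are printed 5′ to 3′ on the strand of the gene. Capitals mark every match to these 3 motifs on either strand. *Xcl1* (chr1:164935473-164935772, minus strand) held 1 match of each, and *Ncr1* (chr7:4337465-4337764, plus strand) held 1 Runx match. The window of *Fcer1g*, the member with the largest difference, held none of the 3 and is not printed.
Xcl1: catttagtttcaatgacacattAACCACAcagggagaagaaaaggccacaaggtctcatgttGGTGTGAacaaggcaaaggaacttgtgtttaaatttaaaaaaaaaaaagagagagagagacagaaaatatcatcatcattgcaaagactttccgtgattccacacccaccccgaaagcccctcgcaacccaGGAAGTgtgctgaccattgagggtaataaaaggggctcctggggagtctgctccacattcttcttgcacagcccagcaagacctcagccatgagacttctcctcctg
Ncr1: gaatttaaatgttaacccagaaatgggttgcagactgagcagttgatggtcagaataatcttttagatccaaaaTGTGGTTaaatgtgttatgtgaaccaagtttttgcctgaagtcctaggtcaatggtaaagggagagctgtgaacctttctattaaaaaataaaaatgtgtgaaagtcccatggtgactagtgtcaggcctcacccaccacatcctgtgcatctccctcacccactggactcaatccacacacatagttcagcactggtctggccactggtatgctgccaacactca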

How the data were processed

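Cells sorted as ILC2s from liver and lung were profiled with 10x 3′ single-cell libraries, 1 per group. Per the paper's methods and the submitters' processing notes, reads were aligned with Cell Ranger to mm10, cells with fewer than 500 genes were removed, counts were scaled to 10000 per cell and transformed to natural logs, and clustering used Seurat (v3.1.2 and v4.0.4), with marker genes found per cluster over all libraries. Doublets were removed by flow cytometry, and a computational doublet caller was not named for these cells. The authors deposited, for each gene listed for a cluster, the fraction of cells above 0 inside the cluster and the same share in all other cells, to 3 decimals. The tables also hold the authors' fold changes and p-values, which were not used. The tables hold no depth, cell number or value per library, so no test was run and no precision was computed for a share.

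Type sizes came from a least squares fit to 1045 genes, each with rows for 2 or more types (numpy 2.4.6, pandas 2.3.3, figures with matplotlib 3.10.9). The fitted sizes summed to 100.1%, with a root mean square residual of 0.0233 percentage points against 0.0289 from rounding, and the fit was tested on simulated data. Positions are from GENCODE M21 (GRCm38, the assembly of mm10), in which all 145 members were found. The members, gene lists and motifs were chosen with earlier results of these data known. Named were the 20 members of largest difference, members on the ILC1, NK and shared lists, 8 genes in each direction against NK, the 5 lowest differences, members listed for ILC1 alone, the 5 leading NK genes not listed for ILC1 and up to 4 examples per other list; further genes were chosen after their values were seen. Some genes are not reported here. Stricter listings and other size fits were tried as alternatives.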

Additional observations from a re-analysis of the deposited data

How the results depend on the processing

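With a share at least 10 points above all other cells, the members fell to 81, those also listed for NK to 60, those listed for no other type to 0 and the members known from ILC1s to 4, and at 25 points 11 members remained. Listings with any share above other cells gave 134 members and 96 shared with NK, but 5 members listed for no other type. Of the genes shared with NK, 15 were at least 5 points and 8 at least 10 points higher in ILC1s. The falls arise because a stricter threshold keeps fewer genes, and the rise to 5 because the other types lose listings as well. At 10 points, the 4 NK genes stayed and 18 of 21 genes common to ILC1s and NK cells were left. The solved size of ILC1 ranged from 4.81% to 4.84% and that of NK from 3.66% to 3.66% under other fits. The tables hold no depth, so its effect on rare genes could not be assessed. No paired analysis was possible because the shares pool all libraries and there was 1 library in each group.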
